A study of Homo sapiens with 8 samples.

Results

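LINC genes are named as long non-coding RNA genes that lie between protein-coding genes, and they have no descriptive name, only a shared prefix and a number. The set described here comprises the genes whose symbol is LINC followed by digits and that reached at least 10 normalized counts in at least 3 of the 6 short-read libraries of HAP1 cells. Of 2214 rows with such a name in the deposited gene table, 287 passed, out of 26066 genes tested in all. A further 499 rows were above 0 in some library but under this minimum, and 1428 were at 0 in every short-read library. Of the 287, 137 carried an Ensembl identifier, and 150 were loci assembled by the authors and named here from GENCODE by shared span and strand (lowest Jaccard index 0.529). GENCODE classes 285 of them as lncRNA, LINC01101 as a locus still awaiting experimental evidence and LINC00674 as a transcribed pseudogene. The loci have 286 symbols, because LINC01238 names 2 GENCODE genes.

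Intergenic lncRNAs are made by RNA polymerase II, and many are capped, spliced and polyadenylated like mRNAs, but they are in general expressed at lower levels and in fewer cell types. A large share of lncRNA molecules stays in the nucleus, where some remain tied to the chromatin on which they were made and act on genes nearby, while others are released. For most LINC genes no function is known, and the number in the name says nothing of one.

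HAP1 is a near-haploid human line derived from the chronic myeloid leukemia line KBM-7, and all libraries came from HAP1 cultures with no genetic change or treatment named in the labels. Nuclei were extracted with urea and a mild detergent, and ERCC standards of equal volume were added to the pellet, the chromatin fraction, and to the supernatant, the nucleoplasm fraction, before rRNA was depleted. The data comprise 3 chromatin and 3 nucleoplasm libraries of strand-specific short reads from 3 independent cultures, and 2 nanopore direct cDNA libraries of chromatin RNA that had been tailed with poly(A). The fraction of each library was taken from its title, because another label field gives chromatin for all 8 libraries. The recovered depth was 38895027 to 43804918 reads per chromatin library and 75737601 to 79523938 per nucleoplasm library. The nuclear lncRNA MALAT1 averaged 965711 normalized counts in chromatin and 113268 in nucleoplasm, and the mRNA of the glycolytic enzyme GAPDH averaged 17269 and 87564, which goes with the titles. Of the blood cell markers, PTPRC, SPI1, MPO and GATA1 were at 0 in every library and CD33 and CD34 did not exceed 4.39 normalized counts, whereas KIT averaged 1533 in chromatin. Markers of attached or mesenchymal cells were mixed. VIM averaged 4212 normalized counts in chromatin, LGALS1 254 and CAV1 41.4, whereas COL4A1 was at 0 in every library. The fusion partners BCR and ABL1 were expressed, and so were the epithelial genes EPCAM, KRT8 and KRT18. In bulk libraries such as these, fewer cells with an RNA and less RNA per cell cannot be told apart.

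The first question was in which nuclear fraction the LINC RNAs lie. Most were higher in chromatin. Over the 287 genes the median log2 fold change of chromatin over nucleoplasm was 1.34 (quartiles 0.44 and 2.46), against -0.019 over all tested genes, and it was above 0 in 247 of them. With a call defined as an adjusted p-value under 0.05 by limma and a change of over 4-fold, 97 LINC genes were called in chromatin (33.8%), where the background over all tested genes was 21.2%. A single gene, LINC02356, was called in nucleoplasm, where the background was 8.47%, and it is among the few genes that passed the minimum through the nucleoplasm libraries alone. Without the fold minimum, limma placed 214 higher in chromatin (74.6%, background 44.2%) and 18 higher in nucleoplasm (6.27%, background 45.2%), and 55 did not pass. All 3 chromatin libraries lay above all 3 nucleoplasm libraries for 214 genes (background 44.6%), the reverse held for 21 (background 46.0%), and 52 overlapped.

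These counts are bounded by the minimum on low values. Of the 287 genes, 56 passed it through the chromatin libraries alone and so had to be higher there, 182 passed in all 6 libraries, 3 through the nucleoplasm libraries alone and 46 in a mixture of both. Over the 182 genes with at least 10 counts in all 6 libraries, the median log2 fold change was 1.01 and 42 were called in chromatin (23.1%), beside 11.4% of all genes with 10 counts in all 6.

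The sign of a change also rests on how the fractions are set against each other. With libraries scaled to the same ERCC total, the median of all tested genes moved to -1.33 and that of the LINC genes to 0.056, and 95 LINC genes changed sign. Then 37 LINC genes were called in chromatin (background 11.9%) and 13 in nucleoplasm (background 34.4%), while 108 and 95 passed at any fold (backgrounds 22.7% and 64.8%). With libraries scaled to the same total, the medians were 0.44 and 1.77, 128 LINC genes passed 4-fold in chromatin and 1 in nucleoplasm (backgrounds 25.6% and 3.83%), and 246 and 7 passed at any fold (backgrounds 54.2% and 34.2%). Relative to the median of all tested genes, the LINC median was 1.36 higher with the deposited size factors, 1.39 higher with the ERCC scaling and 1.33 higher with equal totals.

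**Figure D1:**
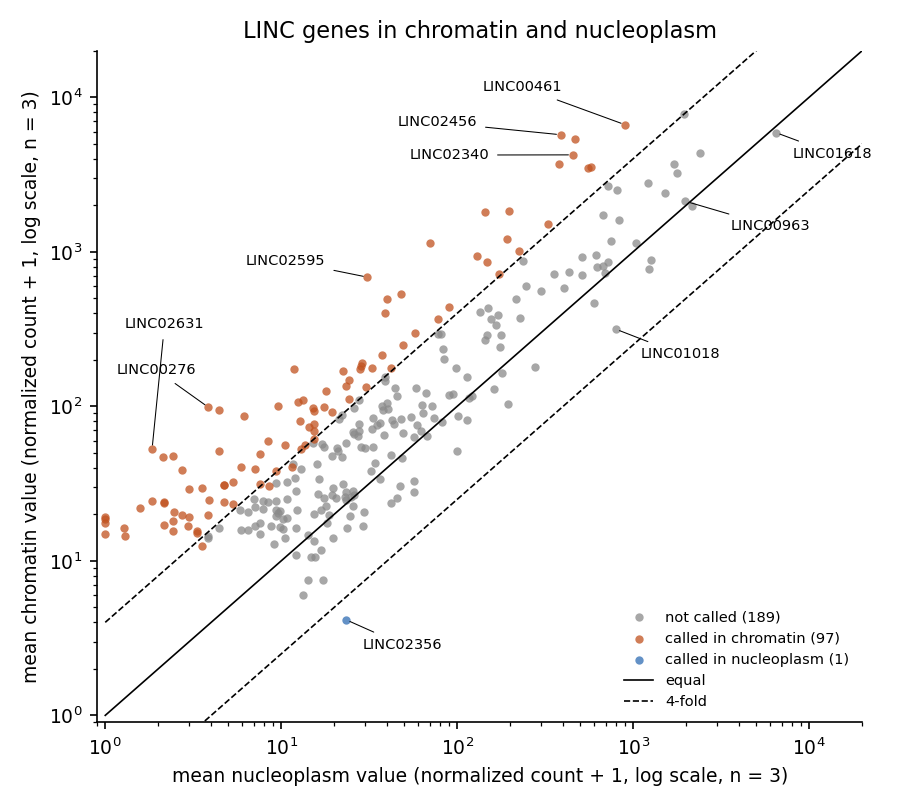
Mean chromatin value against mean nucleoplasm value of the 287 LINC genes, each as normalized count + 1 on log axes (3 libraries per fraction), with points colored by call, a solid line at equal values and dashed lines at 4-fold differences. Most points lie above the solid line, 97 are colored as called in chromatin, and LINC02356 alone as called in nucleoplasm.

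As a share of each library, the LINC genes were a small part of nuclear RNA. They held 0.236 to 0.272% of the normalized counts of the chromatin libraries and 0.0744 to 0.0752% of those of the nucleoplasm libraries, without overlap. A few genes carried much of this signal. The 10 highest genes held 42.0% of the LINC counts in chromatin and 45.1% in nucleoplasm. Counts of 1000 or more were reached by 28 genes in chromatin and 12 in nucleoplasm, while 122 stayed under 50 in chromatin.

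Among the lncRNA classes of the table, the share of LINC genes called in chromatin lay between those of other named and of unnamed genes. Of 575 antisense genes named -AS, 25.9% were called in chromatin, with a median log2 fold change of 1.10. Divergent transcripts named -DT had 20.3% called (n = 354, median 1.15), and lncRNA genes without a symbol 45.5% (n = 1889, median 1.82). Protein-coding genes had 3.94% called in chromatin and a median of -0.39. With 10 counts in all 6 libraries the medians came closer, at 1.01 for LINC, 0.80 for antisense, 0.88 for divergent and 1.08 for unnamed lncRNA genes. No difference between these classes was tested.

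The 5 LINC genes with the largest significant changes were mostly low in counts. All but LINC02595 passed the minimum through the chromatin libraries alone, so their direction was set by it, and their values are given as a description. LINC02631 (chr2:138601599-138617469 in hg38, as for all coordinates here, plus strand) had 40.8, 57.6 and 57.1 normalized counts in chromatin and 0, 0 and 2.53 in nucleoplasm. Its 3 nucleoplasm reads gave a ratio of 60.3 with a 95% counting interval of 20.2 to 296 (log2 fold change 5.10, SE 0.50, and 5.71 without nucleoplasm replicate 3). LINC00276, which spans 690433 bases on chromosome 2, had 51.2, 155 and 86.7 normalized counts in chromatin and 0, 6.03 and 2.53 in nucleoplasm (log2 fold change 4.94, SE 0.69). Its chromatin libraries spread about 3-fold, and leaving out a library moved the log2 fold change to between 4.17 and 5.57, the lowest without nucleoplasm replicate 1 and the highest without nucleoplasm replicate 2.

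LINC00595 (chr10:78179185-78551355) had 55.9, 45.6 and 36.2 normalized counts in chromatin and 0, 1.72 and 1.69 in nucleoplasm (log2 fold change 4.57, SE 0.42). LINC02595, a gene of 4526 bases on the X chromosome, was the most abundant of the 5, with 610.3, 849 and 594 normalized counts in chromatin and 31.6, 26.7 and 31.3 in nucleoplasm. Its change had the smallest standard error of the 5 (log2 fold change 4.46, SE 0.15, limma adjusted p 2.22e-08). LINC02362 (chr4:184365180-184382416) lies 3286 bases downstream of IRF2, the gene of an interferon regulatory factor, by GENCODE positions. It had 68.7, 127 and 86.7 normalized counts in chromatin and 4.39, 2.58 and 3.38 in nucleoplasm (log2 fold change 4.39, SE 0.27), whereas IRF2 was lower in chromatin (log2 fold change -0.56, SE 0.085, limma adjusted p 0.000224), a difference that did not pass with equal read totals (-0.10).

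For 4 genes no read was recovered from the 3 nucleoplasm libraries. These could pass the minimum only through the chromatin libraries, so their direction was set by it, and their bounds are given as a description. Against a floor of 3 counts over that group, LINC02974 was at least 21.0-fold higher in chromatin, LINC02922 at least 20.5-fold, LINC01340 at least 19.2-fold and LINC02955 at least 16.1-fold. Their chromatin values were low, between 10.5 and 22.8 normalized counts per library. A further 5 genes, LINC02631 among them, had 1 to 3 nucleoplasm reads and so also passed through the chromatin libraries alone. These limits and intervals cover counting error only.

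With the deposited scaling few LINC genes were higher in nucleoplasm, and only LINC02356 passed 4-fold. LINC02356 (chr12:111369261-111403310, plus strand) had 4.66, 4.80 and 0 normalized counts in chromatin and 22.8, 20.7 and 23.7 in nucleoplasm (log2 fold change -2.87, SE 0.64, limma adjusted p 0.0025). It rests on 8 chromatin and 78 nucleoplasm reads, a ratio of 0.137 with a counting interval of 0.0573 to 0.284. Its direction was set by the minimum on low values, and without chromatin replicate 3, the library at 0, the log2 fold change was -2.03. LINC01018, known as a liver-expressed transcript, was far better covered, with 321, 275 and 348 normalized counts in chromatin and 785, 777 and 823 in nucleoplasm (log2 fold change -1.34, SE 0.09, limma adjusted p 1.02e-06). Its 3′ end runs into that of NSUN2, a gene for an RNA methyltransferase on the opposite strand that was higher in chromatin (log2 fold change 0.62, SE 0.043), or lower with the ERCC scaling (-0.71).

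The other 3 of the 5 lowest significant fold changes were smaller. LINC02154 had 5.82, 7.21 and 6.59 normalized counts in chromatin and 12.3, 18.1 and 18.6 in nucleoplasm (log2 fold change -1.18, SE 0.25). LINC02916 had 22.1, 30.0 and 28.5 normalized counts in chromatin and 56.2, 50.8 and 60.0 in nucleoplasm (log2 fold change -1.03, SE 0.17), and LINC02901 had 47.8, 49.2 and 54.9 normalized counts in chromatin and 93.9, 99.0 and 104 in nucleoplasm (log2 fold change -0.95, SE 0.11). In LINC02916 and LINC02901 all nucleoplasm libraries lay above all chromatin libraries, whereas for LINC02154 the minimum on low values set that order, since it passed in the nucleoplasm libraries alone. With DESeq2, LINC02154 did not pass (adjusted p 0.0556).

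**Figure D2:**
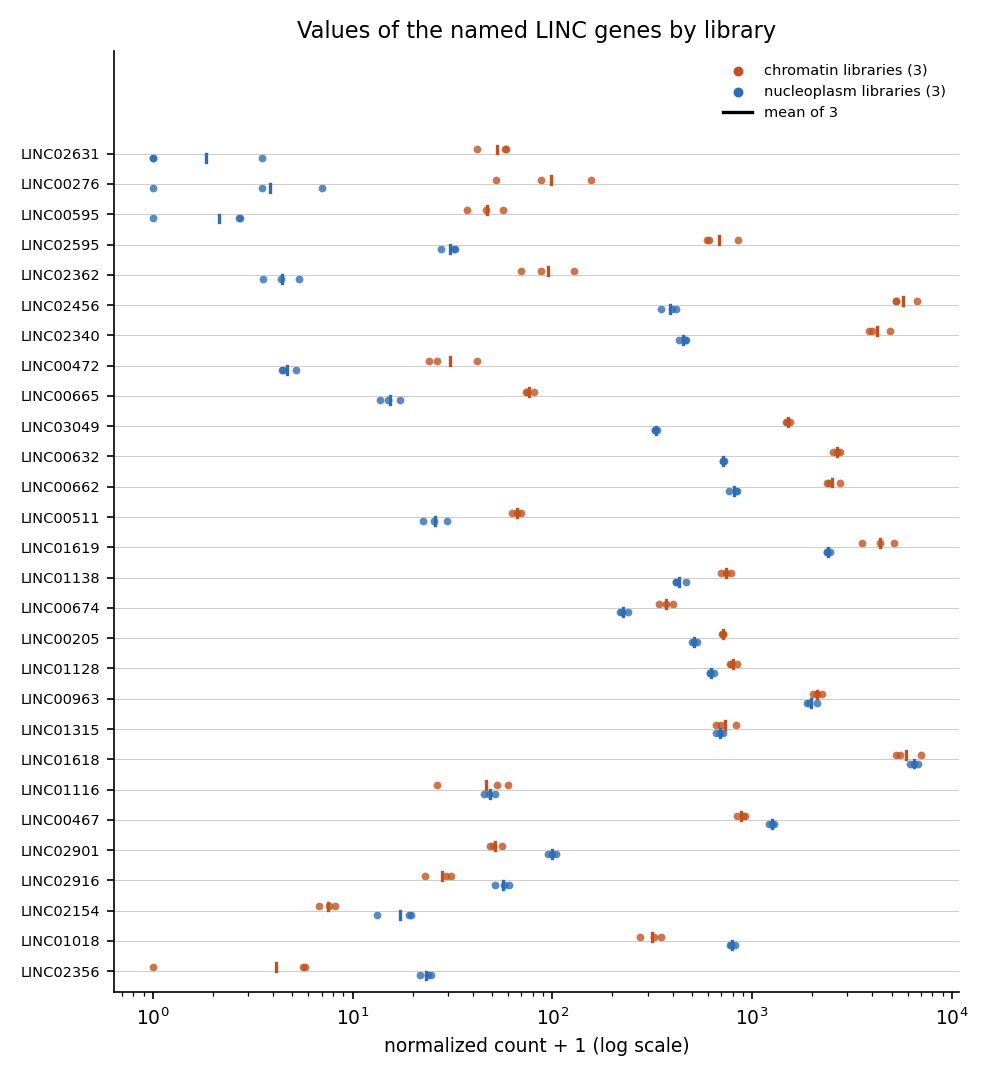
Normalized count + 1 on a log axis in each short-read library for the LINC genes named by earlier description, level per kb or fold change. Dots are libraries and short bars are the means of 3, and genes named by span or TPM alone are not drawn. LINC02631 reads 40.8 to 57.6 in chromatin and at most 2.53 in nucleoplasm, LINC00963, LINC01315, LINC01618 and LINC01116 show overlapping fractions, and LINC02356 shows higher nucleoplasm values.

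The start regions of the genes at both ends of the fold change are printed here because their CpG content differs widely. They belong to LINC00276, LINC02362 and LINC02595, high in chromatin, and to LINC02356, called in nucleoplasm. Each runs from 250 bases before to 50 bases after the start in the RefSeq promoter table (GRCh38.p14), 5′ to 3′ on the gene's strand, in lower case with CpG dinucleotides in capitals. They lie at chr2:14400909-14401208 (minus), chr4:184382257-184382556 (minus), chrX:45851441-45851740 (minus) and chr12:111369011-111369310 (plus).
LINC00276: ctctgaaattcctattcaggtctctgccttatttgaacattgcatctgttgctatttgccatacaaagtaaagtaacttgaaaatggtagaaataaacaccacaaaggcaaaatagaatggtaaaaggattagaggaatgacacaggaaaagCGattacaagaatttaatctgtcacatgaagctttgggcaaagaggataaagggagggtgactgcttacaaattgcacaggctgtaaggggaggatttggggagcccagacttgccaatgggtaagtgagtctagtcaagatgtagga
LINC02362: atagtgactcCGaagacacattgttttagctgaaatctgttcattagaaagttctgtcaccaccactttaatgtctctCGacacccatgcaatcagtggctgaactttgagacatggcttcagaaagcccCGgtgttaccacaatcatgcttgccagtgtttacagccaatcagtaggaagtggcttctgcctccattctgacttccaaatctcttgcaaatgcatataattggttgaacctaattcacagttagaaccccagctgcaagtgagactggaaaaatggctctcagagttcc
LINC02595: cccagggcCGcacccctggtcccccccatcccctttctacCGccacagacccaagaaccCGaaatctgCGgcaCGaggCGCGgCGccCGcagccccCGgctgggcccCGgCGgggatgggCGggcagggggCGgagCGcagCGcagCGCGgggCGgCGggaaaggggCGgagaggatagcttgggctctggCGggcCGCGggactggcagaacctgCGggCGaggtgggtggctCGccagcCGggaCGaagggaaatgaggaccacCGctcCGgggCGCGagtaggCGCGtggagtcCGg
LINC02356: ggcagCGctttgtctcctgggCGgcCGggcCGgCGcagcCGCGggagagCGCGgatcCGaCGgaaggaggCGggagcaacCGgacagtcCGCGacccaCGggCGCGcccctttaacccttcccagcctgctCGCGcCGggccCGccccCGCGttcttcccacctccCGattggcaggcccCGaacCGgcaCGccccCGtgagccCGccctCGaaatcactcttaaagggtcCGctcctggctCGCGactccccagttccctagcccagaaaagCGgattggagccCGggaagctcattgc
LINC00276 and LINC02362 have 1 and 3 CpGs in these windows, whereas LINC02595 and LINC02356, at opposite ends of the fold change, have 36 each. LINC02356 and PHETA1, a gene for an adaptor of endosomal trafficking on the opposite strand, start 140 bases apart, and the PHETA1 start at 111369121 lies inside the LINC02356 window. PHETA1 did not pass the test (log2 fold change -0.19, SE 0.10, limma adjusted p 0.109), but did without chromatin replicate 2 (-0.26).

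Over the LINC genes, those with a CpG-poor promoter had the higher median, but the difference was small or in the other order where all 6 libraries held 10 counts. RefSeq had a promoter for 200 of the 287 genes by symbol, chromosome and strand, with a median of 13 CpGs in 300 bases, beside 14 for the 35116 promoters of the table and 26 for tested protein-coding genes. The 99 genes with at least 14 CpGs had a median log2 fold change of 1.10 and 24.2% called in chromatin, and the 101 with fewer had 1.67 and 40.6%. The same split over tested genes of lncRNA type gave 1.12 and 22.05% against 1.48 and 38.9%, and over all tested genes 4.597% against 14.2% called. The split is therefore not particular to the LINC genes. With 10 counts in all 6 libraries, the medians were 0.89 (81 genes) and 0.97 (53 genes). For the 151 genes whose RefSeq start was within 1 kb of the GENCODE start, they were 1.12 and 1.29, and among these with 10 counts in all 6 libraries 0.95 and 0.94, with 21.4% and 12.8% called, the reverse order. Fold change and CpG count were correlated at r = -0.286 (rho = -0.317) over 200 genes and at r = -0.0879 (rho = -0.1) over the 134 with 10 counts in every library, all measured in the same 6 libraries.

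TATAAA or its reverse complement TTTATA was in 12% of the LINC promoters and in 11.5% of all promoters of the table, but in 5.88% of those of tested genes and 5.75% of those of tested protein-coding genes. CCAAT or ATTGG was in 39% of the LINC promoters, 34.6% of all promoters and 36.2% of those of tested genes. No difference between these shares was tested. Of the printed windows, those of LINC00276, LINC02362 and LINC02356 hold CCAAT on one strand or the other. At the 3′ end, the last 50 bases of the transcript held AATAAA or ATTAAA, the letters of the common polyadenylation signal, in 57.1% of the LINC genes, 50.5% of tested lncRNA genes and 74.6% of tested protein-coding genes.

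Abundant LINC RNAs were compared per length, as mean normalized counts per kb of annotated exon. In chromatin the order was LINC02340 (3859 per kb), LINC02456 (2813), LINC00674 (2319), LINC03049 (1213) and LINC01618 (1169.9). The rank of LINC00674 rests on a divisor of only 160 annotated exon bases, in a deposited locus of 23847 bases, and its level per kb is therefore uncertain. The rank of LINC02340 rests on 1098 annotated exon bases in a locus of 73026 bases, so its level per kb also depends on a small divisor. LINC02340 (chr13:27178263-27251288, minus strand) had 3977, 4884 and 3851 normalized counts in chromatin and 468, 459.7 and 427 in nucleoplasm (log2 fold change 3.22, SE 0.091, limma adjusted p 1.28e-08). By GENCODE it starts 74 bases from RPL21, a ribosomal protein gene on the opposite strand, whose RNA was lower in chromatin (log2 fold change -0.99, SE 0.079). These neighbours therefore differed in opposite directions.

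LINC02456 (chr12:102197585-102463491, plus strand) runs antisense to the growth factor gene IGF1. This deposited span of 265907 bases is wider than the annotated 206279 (Jaccard index 0.776), while the divisor was 2034 annotated exon bases. The level per kb of LINC02456 is therefore uncertain too. The annotated gene starts at 102257213. A coding gene of the same strand ends 59693 bases upstream of that, close to the start of the deposited span. How much of the count comes from outside the annotated gene was not tested. The deposited locus had 5264, 6657 and 5243 normalized counts in chromatin and 415, 394 and 348 in nucleoplasm (log2 fold change 3.88, SE 0.10, limma adjusted p 1.18e-08). LINC03049 on chromosome 19 had 1554, 1501 and 1484 normalized counts in chromatin and 326, 326 and 334 in nucleoplasm (log2 fold change 2.20, SE 0.051). LINC00461, known for its expression in the brain and as a host of the microRNA miR-9, was among the highest by count, with 6764, 6382 and 6787 normalized counts in chromatin and 831, 927 and 934 in nucleoplasm (log2 fold change 2.89, SE 0.059, limma adjusted p 8.69e-09).

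In nucleoplasm the order per kb was LINC00674 (1413), LINC01618 (1285), LINC01315 (515), LINC01619 (489) and LINC02340 (411). LINC00674, a pseudogene whose reads may be shared with the gene it copies, had 401, 369.9 and 343 normalized counts in chromatin and 223, 217 and 238 in nucleoplasm (log2 fold change 0.71, SE 0.082, and -0.61 with the ERCC scaling). LINC01315 had 833, 694 and 656 normalized counts in chromatin and 716, 657 and 689 in nucleoplasm, which overlap (log2 fold change 0.075, SE 0.091, limma adjusted p 0.448), though it passed with equal read totals (0.54). The reads of LINC01618 and LINC01619 cannot be given to the lncRNA alone.

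In 13 of the LINC genes the deposited span holds an exon of a protein-coding gene on the same strand, and for 10 of these the coding gene had no row of its own. The pairs include LINC01618 with RASL11B (a small GTPase), LINC01619 with BTG1 (an antiproliferative factor), LINC00598 with FOXO1 (a forkhead transcription factor), LINC01500 with DACT1 (a regulator of Wnt signalling), LINC00391 with SOX21 and LINC01118 with SOCS5. Reads of the mRNA and of the lncRNA cannot be told apart in such loci. The 10 loci held 31.4% of all LINC counts in nucleoplasm and 15.2% in chromatin, and 5 of the 10 highest LINC genes in nucleoplasm were among them. Their median log2 fold change was 0.60, with 1 called in chromatin.

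LINC01618 had 5488, 5235 and 6981 normalized counts in chromatin and 6484, 6175 and 6783 in nucleoplasm, with overlap (log2 fold change -0.15, SE 0.10, limma adjusted p 0.204, but -0.27 and past the threshold without chromatin replicate 3). LINC01500 had 731, 809 and 766 normalized counts in chromatin and 1182, 1278 and 1206 in nucleoplasm, all nucleoplasm libraries being higher (log2 fold change -0.67, SE 0.059). LINC01619 had 4381, 3538 and 5153 normalized counts in chromatin and 2382, 2379 and 2450.1 in nucleoplasm (log2 fold change 0.84, SE 0.12, and -0.48 with the ERCC scaling). Over the 274 genes without a coding exon the median was 1.36, with 95 called in chromatin.

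Of 20 LINC genes with earlier descriptions that were looked up by name, 11 were in the set, and their levels and fractions differed widely. LINC00665, described to encode a small peptide, had 73.4, 73.3 and 80.1 normalized counts in chromatin and 14.04, 16.4 and 12.7 in nucleoplasm (log2 fold change 2.32, SE 0.16). LINC00472, described as a tumor suppressor transcript, was low, with 25.6, 40.8 and 23.1 normalized counts in chromatin and 3.51, 3.44 and 4.22 in nucleoplasm (log2 fold change 2.67, SE 0.27). These were the only ones of the 11 past 4-fold, and LINC00472 had passed the minimum in the chromatin libraries alone.

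LINC00632, the host transcript of the circular RNA CDR1as, had 2768, 2667 and 2542 normalized counts in chromatin and 713, 716 and 726 in nucleoplasm (log2 fold change 1.89, SE 0.05). Whether its reads come from the linear or the circular RNA cannot be told from the table. LINC00662 had 2358, 2762 and 2421 normalized counts in chromatin and 839, 833 and 766 in nucleoplasm (log2 fold change 1.63, SE 0.072), and LINC00511 had 61.7, 68.5 and 65.9 normalized counts in chromatin and 24.6, 21.5 and 28.7 in nucleoplasm (log2 fold change 1.36, SE 0.15). Neither passed with the ERCC scaling (0.30 and 0.073). The differences of LINC01138 (0.78), LINC00205 (0.47) and LINC01128 (0.35) were smaller on the log2 scale and became -0.55, -0.85 and -0.97 with the ERCC scaling. The deposited span of LINC01138 holds a same-strand exon of the coding gene PPIAL4G, which had no row of its own. The reads of LINC01138 therefore cannot be given to the lncRNA alone.

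The fractions overlapped for LINC00963, with 2017, 2242 and 2113 normalized counts in chromatin and 1874, 2121 and 1933 in nucleoplasm (limma adjusted p 0.147), which passed with equal read totals (0.57) and with DESeq2 (0.20). They also overlapped for LINC01116, with 25.6, 51.6 and 59.3 normalized counts in chromatin and 44.8, 50.8 and 47.3 in nucleoplasm (limma adjusted p 0.639). LINC00467, also described to encode a small peptide, was with the deposited scaling the only one of the 11 significantly lower in chromatin, with 901, 916 and 835 normalized counts in chromatin and 1294, 1213 and 1264 in nucleoplasm (log2 fold change -0.51, SE 0.056, limma adjusted p 3.09e-05). With equal read totals it did not pass (-0.043), and with equal ERCC totals LINC00205, LINC00963, LINC01116, LINC01128 and LINC01138 were significantly lower as well. LINC00261, LINC00958 and LINC00460 had a row but were under the minimum. LINC00339, LINC00473, LINC00346, LINC00641, LINC00294 and LINC00707 had no row of that name, so nothing is said of their levels.

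Span and exon number were compared next. The annotated span ran from 634 to 763663 bases with a median of 17237, and 64 genes were longer than 100 kb. From the shortest to the longest quartile of span, the median log2 fold changes were 1.25, 1.18, 1.41 and 1.99, with 27.8, 26.4, 32.4 and 48.6% called in chromatin. Among genes with 10 counts in all 6 libraries the medians were 0.44, 0.94, 1.28 and 1.12. Over the 287 genes, fold change and log10 span were correlated at r = 0.17 (rho = 0.178), all in the same 6 libraries.

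The longest genes were low in counts and higher in chromatin. LINC02934 (763663 bases) had 37.3, 39.6 and 35.1 normalized counts in chromatin and 7.02, 7.75 and 10.1 in nucleoplasm (log2 fold change 2.06, SE 0.20). LINC01505 (747566 bases) had 19.8, 42.0 and 27.4 normalized counts in chromatin and 7.02, 1.72 and 2.53 in nucleoplasm (log2 fold change 2.79, SE 0.45), and LINC01122 (636029 bases) had 48.9, 30.0 and 35.1 normalized counts in chromatin and 6.14, 12.1 and 0 in nucleoplasm (log2 fold change 3.08, SE 0.83). LINC00882 (610203 bases) differed by less, with 75.7, 82.9 and 67.0 normalized counts in chromatin and 30.7, 31.9 and 38.9 in nucleoplasm (log2 fold change 1.13, SE 0.15, and -0.17 with the ERCC scaling). LINC00276 and LINC01505 passed the minimum in the chromatin libraries alone, which set their direction, and the fractions of LINC02934, LINC01122 and LINC00882 did not overlap. LINC02934 and LINC01122 reached it in 3 chromatin libraries but only 1 nucleoplasm library, so the minimum bears on their order as well. The counts of LINC01122 come from a deposited locus of 851602 bases, wider than its annotated span (Jaccard index 0.747). Without nucleoplasm replicate 3, LINC01122 was at 1.99, under 4-fold, and without nucleoplasm replicate 2 at 3.84.

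By exon number, 26 genes had 1 annotated exon and 261 had more, up to 24 in LINC00174. The median log2 fold change was 1.56 for single-exon and 1.31 for multi-exon genes. Within the latter it was 0.71 for 41 genes of 2 exons, 1.29 for 49 of 3 exons, 1.25 for 73 of 4 or 5, 1.42 for 71 of 6 to 9 and 1.92 for 27 of 10 or more. Exon number and span were themselves correlated, at r = 0.728 (rho = 0.825). The single-exon LINC00938 had 1781, 1669 and 1714 normalized counts in chromatin and 656, 687 and 687 in nucleoplasm (log2 fold change 1.35, SE 0.051).

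**Figure D3:**
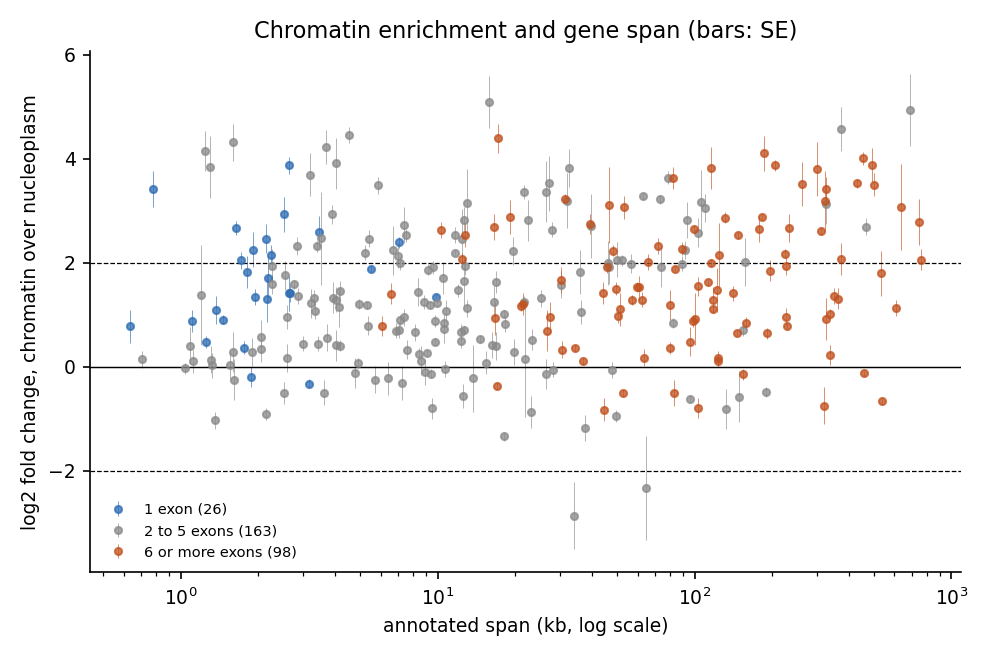
Log2 fold change of chromatin over nucleoplasm against annotated span in kb (log axis) for the 287 LINC genes, colored by annotated exon number, with standard errors of the limma fit as bars, a solid line at 0 and dashed lines at 4-fold. The median is 1.25 in the shortest and 1.99 in the longest quartile of span, and values spread widely at every length.

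Although named intergenic, the genes often lay close to coding genes. By GENCODE positions, 33 overlapped the span of a protein-coding gene, and 126 overlapped one or lay within 10 kb of one. The median log2 fold change was 1.32 for these and 1.41 for the other 161. For 41 genes a coding gene of the same strand ended within 10 kb upstream, as IRF2 does before LINC02362, and their median was 1.85, against 1.30 for the remaining 246. With 10 counts in all 6 libraries these medians were 1.20 (24 genes) and 0.97 (158 genes).

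For 24 genes the start lay within 1 kb of the start of a coding gene on the opposite strand, and their median was 1.31. LINC01473 had a log2 fold change of 4.01 while its neighbour ZC3H15 had -0.12, and LINC00571, which passed in the chromatin libraries alone, had 3.80 beside 0.33 for UFM1. The reverse order was seen for LINC00551 (-0.58) and ARGLU1 (2.92). Over 78 LINC genes with a tested coding gene within 10 kb and no overlap, the LINC gene had the higher fold change in 64, and the coding neighbours had a median of -0.25. Of all 287 LINC genes, 86.1% lay above the median of all tested genes, and all tested protein-coding genes had a median of -0.39. Whether the order in pairs depends on being neighbours was not tested. The fold changes within pairs were weakly correlated, at r = 0.128 (rho = 0.155).

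The long-read libraries gave another measurement of the same genes in chromatin. A long-read transcript of the gene was above 0 TPM in both libraries for 160 of the 287 genes (55.7%, 95% Wilson interval 49.96 to 61.4) and in at least 1 library for 239 (83.3%). Over all tested genes these shares were 58.8% and 68.8%, over tested lncRNA genes 54.9% and 80.4% and over protein-coding genes 87.1% and 94.3%. Antisense genes named -AS had 63.8% and 85.2%, and divergent transcripts named -DT 55.9% and 84.2%. All tested genes include loci without a GENCODE name. These could match only through an assembled transcript, whereas most LINC genes matched by reference identifier, so that comparison is unlike. Of the LINC genes not above 0 TPM in both, 23 were seen in replicate 1 alone, 56 in replicate 2 alone and 48 in neither. The TPM table does not keep depth, and by the study's description the read numbers of the HAP1 libraries were unequal. How depth bears on detection in one library alone was not tested.

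Detection followed the short-read level. From the lowest to the highest quartile of mean chromatin count, 26.4, 37.5, 69.0 and 90.3% of LINC genes were above 0 TPM in both libraries, beside 24.1, 31.1, 44.4 and 80.2% of all tested genes in the same count ranges. The shares of all tested genes carry the limit given above. The 48 undetected genes had a median of 23.8 chromatin counts and a median log2 fold change of 1.99, and 16 of them had another long-read transcript overlapping their span on the same strand. A detected gene had a median of 2 transcripts above 0 TPM, and LINC01515 had 19. For 220 genes all transcripts carried a reference identifier, for 4 all were assembled by the authors and for 15 there were both kinds.

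**Figure D4:**
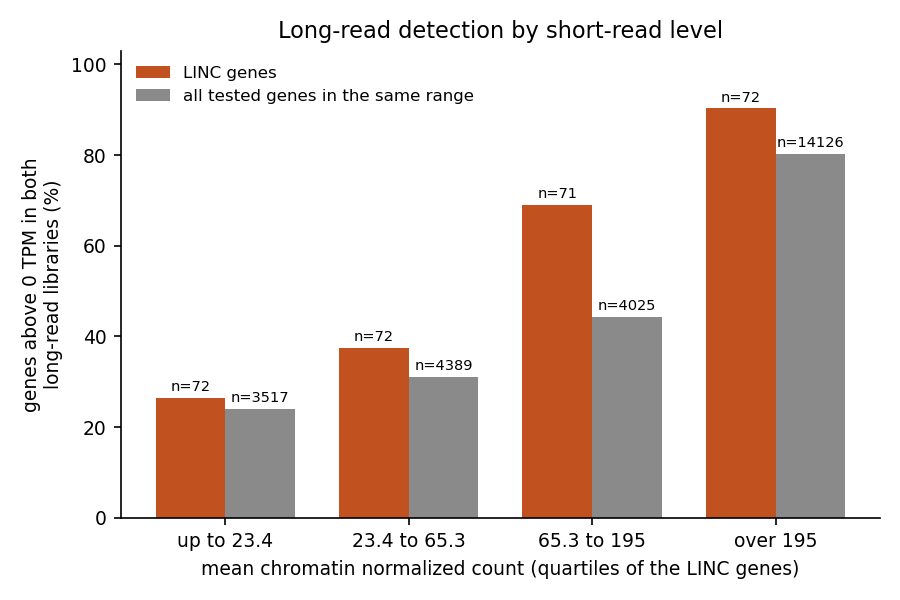
Share of genes (%) above 0 TPM in both long-read libraries by quartile of mean chromatin normalized count, for LINC genes and for all tested genes in the same count ranges. The share of LINC genes goes from 26.4% to 90.3%, and that of all tested genes from 24.1% to 80.2%. The latter include loci without a GENCODE name, which could match only through an assembled transcript.

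Among the 160 genes above 0 in both, log2 TPM of the libraries was correlated at r = 0.755 (rho = 0.794), and mean log2 TPM with the short-read chromatin count per kb at r = 0.564 (rho = 0.621). The highest long-read levels were those of LINC01670 (77.7 and 62.1 TPM), LINC00649 (56.2 and 66.9 TPM), LINC00461 (66.0 and 47.9 TPM), LINC01515 (36.3 and 57.1 TPM) and LINC00174 (35.8 and 37.99 TPM). LINC01670, a gene of 3392 bases on chromosome 21, had 250.4, 268 and 223 normalized counts in chromatin and 50.9, 47.3 and 47.3 in nucleoplasm (log2 fold change 2.32, SE 0.11). LINC01515 had 3299, 3985 and 3389 normalized counts in chromatin and 580.1, 591 and 559 in nucleoplasm (log2 fold change 2.62, SE 0.075). LINC00174 had 3490.5, 4044 and 3546 normalized counts in chromatin and 1631, 1729 and 1776 in nucleoplasm (log2 fold change 1.11, SE 0.067, and -0.22 with the ERCC scaling).

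Some genes stood apart between the methods. LINC00649 had only 48.9, 49.2 and 53.8 normalized counts in chromatin and 20.2, 21.5 and 18.6 in nucleoplasm (log2 fold change 1.29, SE 0.15, and 0.01 without passing under the ERCC scaling), yet the second highest long-read level. Nearly all of that level, 56.2 and 66.2 TPM, belonged to a transcript assembled by the authors at chr21:33903430-33969518 on the plus strand, which takes in the whole of ATP5PO (chr21:33903453-33915814), a gene for a subunit of the mitochondrial ATP synthase on the minus strand. The other LINC00649 transcript had 0 and 0.724 TPM. Direct cDNA libraries do not record the strand of origin, and whether the deposited table was made after the authors' strand assignment is not stated. How far ATP5PO reads enter this value was not tested.

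The reverse held for LINC02456, whose chromatin mean was 5721 normalized counts and which was at 0 TPM in both long-read libraries. All transcripts on the LINC02456 strand overlapping its deposited span had 0.516 and 6.25 TPM in sum. That span, over which the short reads were counted, is wider than the annotated gene and begins close to the end of a coding gene on the same strand. LINC02340, first by count per kb, had 2.31 and 0.363 TPM, and all transcripts overlapping its span on its strand had 14.3 and 3.10 TPM in sum. LINC02631, with the largest fold change, was also at 0 TPM in both, and no transcript above 0 TPM overlapped it on its strand. LINC02934, the longest gene, was at 0 TPM in both as well. All transcripts on the LINC02934 strand overlapping its span had 6.90 and 6.12 TPM in sum. LINC02595 had 11.8 and 11.8 TPM. LINC02356, called in nucleoplasm, had 0.315 and 2.56 TPM in chromatin. LINC02067 had 22.5 and 24.9 TPM but uneven short-read values, with 2.33, 20.4 and 23.1 normalized counts in chromatin and 3.51, 3.44 and 60.8 in nucleoplasm (log2 fold change 0.16, SE 1.12).

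**Figure D5:**
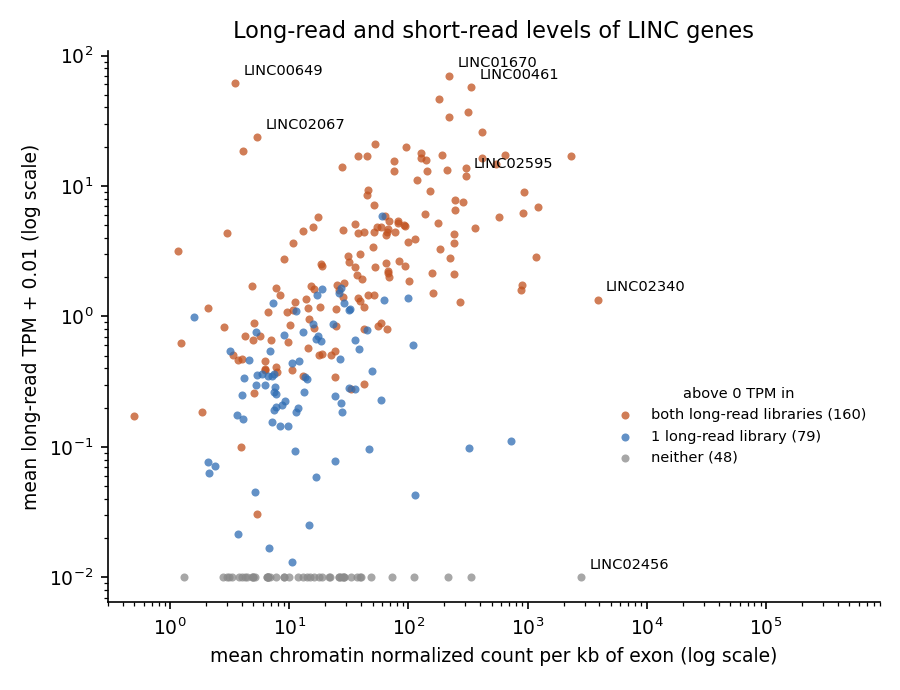
Mean long-read TPM (with a small constant added so that 0 can be drawn) against mean chromatin normalized count per kb of annotated exon for the 287 LINC genes, on log axes, colored by the number of long-read libraries above 0. LINC00649 lies high in TPM at 3.51 counts per kb, and LINC02456 lies at 0 TPM with 2813 counts per kb.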

How the data were processed

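Short-read values were deposited by the authors as a normalized signal per gene, made with HISAT2 2.1.0 on hg38 and ERCC sequences, StringTie assembly and DESeq2 size factors. Long-read values were deposited as TPM per transcript after minimap2 and StringTie, from direct cDNA, which by the study's account does not record strand. The study describes a step that assigns strand from primer sequences, and whether this table was made after it is not given in the sources used here. Detection on the same strand rests on that. Each short-read value was a whole multiple of what 1 read is worth in its library (100% within 0.0001 reads). StringTie derives counts from coverage, so recovered reads are estimates.

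Rows were named from GENCODE release 44, later than the authors' release, by stable identifier or by strand and largest span Jaccard index (minimum 0.5). Genes with 10 normalized counts in 3 libraries and over 200 bases of span entered a limma 3.58.1 fit (R 4.3.3, trend option) of log2(normalized count + 1) in the 6 short-read libraries, with no covariate and Benjamini-Hochberg adjustment over 26066 genes. The pseudocount understates changes of low genes. On simulated data with 200 of 26066 genes changed by 3 on the log2 scale, limma called 199 of them and 0 others. The simulation used a single fixed dispersion, as many rises as falls, and no change in any other gene. In the data most tested genes passed at any fold, so the simulation does not give the error rate of the calls made here. The alternatives used recovered reads (edgeR 4.0.16, DESeq2 1.42.0), other pseudocounts, filters, scalings and naming, a replicate block, and each library left out in turn.

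Named genes are 4 fractionation markers, the listed LINC genes with earlier descriptions, the 5 highest per kb in each fraction, the 5 largest and 5 smallest significant fold changes, the 5 longest, the 5 highest by TPM, any called in nucleoplasm, and the coding gene nearest to those chosen by level or fold change within 10 kb. Others were chosen after their values were seen. The members and lists were chosen with earlier results of these data known. The marker HBG1 was not analysed here, having no row of that name.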

Additional observations from a re-analysis of the deposited data

How the results depend on the processing

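The scaling moved the values most. With equal ERCC totals, 37 LINC genes were called in chromatin, 13 in nucleoplasm, 108 and 95 passed at any fold, and the median was 0.056 (0.35 single-exon, 0.024 multi-exon, -0.17 CpG-rich promoters). The sign changed for LINC00174 (-0.22), LINC00205 (-0.85), LINC00674 (-0.61), LINC00882 (-0.17), LINC00963 (-1.22), LINC01128 (-0.97), LINC01138 (-0.55), LINC01315 (-1.25), LINC01619 (-0.48) and NSUN2 (-0.71), while LINC00662, LINC00511 and LINC00649 no longer passed and LINC01116 (-1.44), LINC01618 (-1.47) and PHETA1 (-1.51) passed. With equal read totals LINC00467 and IRF2 no longer passed, LINC00963 and LINC01315 passed, the median was 1.77, 7 genes were higher in nucleoplasm, and LINC01116 (0.31), LINC01618 (0.32) and PHETA1 (0.27) changed sign. A pseudocount of 5 gave a median of 1.19 (1.33 and 1.18 by exons) and 0 nucleoplasm calls. Without a filter (786 genes) the median was 0.94, with 348 higher in chromatin and 4 called in nucleoplasm. A mean of at least 50 counts left 139 genes, with 45 and 0 called, 113 and 10 at any fold and a median of 1.25 (1.20 multi-exon). The 137 Ensembl identifiers alone gave 44 and 0 called, and 100 and 7 at any fold. A 2-fold minimum called 174 and 4. DESeq2 gave a median of 1.46, 10 genes higher in nucleoplasm and 0.029 for LINC01116, passed LINC00963 and did not pass LINC02154. Requiring 10 counts in all 6 libraries, chosen after seeing the data, left 42 chromatin calls and a median of 1.01. Exons of the longest transcript gave a single-exon median of 1.36, and a coding gene upstream on the same strand gave 1.85. Detection in both and in at least 1 long-read library was 33.8% and 55.4% at 1 TPM or more, 65.5% and 88.9% with any overlap on the strand, and 25.4% and 44.7% over all 749 LINC genes with chromatin reads. Except where a change of filter or identifier sets the genes tested, the cause was not tested.

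Leaving out 1 library at a time gave 92 to 105 genes called in chromatin and 1 to 2 in nucleoplasm (2 without chromatin replicate 1), 209 to 215 and 16 to 21 at any fold, and medians of 1.33 to 1.37. LINC01116 ranged from -0.38 to 0.21 and LINC01315 from -0.025 to 0.15, both changing sign without chromatin replicate 1. LINC01122 fell under 4-fold without nucleoplasm replicate 3, LINC01618 passed without chromatin replicate 3, and PHETA1 passed without chromatin replicate 2. The study names 3 independent cultures but states no pairing by replicate number, so the main fit used none. Same-numbered libraries deviated together weakly (r = 0.0871, 0.0533, 0.0626), though each library correlated best with its own number. A pairing by culture is therefore possible, and a replicate block was fitted as an alternative. The replicate block gave 97 calls in chromatin and 2 in nucleoplasm. The TPM table keeps no depth, so a value of 0 sets no upper limit.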

Other observations

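LINC genes under the minimum were also looked up in the long reads. Of 1927 such rows, 44 were above 0 TPM in both long-read libraries (2.28%) and 170 in at least 1 (8.82%). Of the 1428 rows at 0 in every short-read library, 12 were above 0 TPM in both long-read libraries and 67 in at least 1. LINC02637 on chromosome 10 had 43.2 and 32.5 TPM, with short-read values of 0, 0 and 0 normalized counts in chromatin and 0, 1.72 and 0 in nucleoplasm. LINC02788 had 11.4 and 4.81 TPM and LINC00519 had 8.43 and 1.79 TPM, and both were at 0 in all 6 short-read libraries. LINC00960 had 15.9 and 10.3 TPM, with 6.99, 9.61 and 26.3 normalized counts in chromatin and 3.51, 8.61 and 6.76 in nucleoplasm. These genes were named after their values were seen.

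By chromosome, LINC genes made up 10 of 285 tested genes on chromosome 21 (3.51%), 17 of 545 on chromosome 13 (3.12%) and 6 of 1003 on chromosome 16 (0.598%), the last being the lowest share of the 23 chromosomes with members. No test was run on these shares.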
